A study of Oryza sativa with 36 samples.

Results

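DROOPING LEAF and 4 further YABBY genes were followed through floret development in 2 rice lines. The 5 genes, taken by their IDs, are DL (Os03g0215200), TOB1, also called OsYABBY5 (Os04g0536300), OsYABBY3 (Os10g0508300), OsYABBY4 (Os02g0643200) and OsYABBY1 (Os07g0160100), out of 37862 gene IDs in the count table, of which 26726 had enough counts to be tested. All 5 were among the tested genes. The lines were the indica cultivar IR64, labelled as the wild-type control, and OsEPF1-oe, a transgenic line overexpressing OsEPF1, the gene of a small secreted signal that limits the number of stomata. The labels also spell it OsEPF1-oeS; neither the transgene's promoter nor its number of independent insertions is stated in the labels, so an effect of OsEPF1 and one of the insertion cannot be told apart. Developing florets came from stages 1, 2, 3, 4 and 5, roughly 75 to 85 days from sowing, and mature florets from headed panicles that had not yet reached anthesis, at roughly 95 days. Each of the 12 groups held 3 libraries, and each developing replicate combined RNA of 3 plants. For mature florets the labels state no such pooling.

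YABBY proteins are plant transcription factors with a zinc finger and a helix-loop-helix-like YABBY domain. In Arabidopsis several of them mark and specify the lower side of leaves and floral organs, whereas in rice their expression is not confined to that side. DL is the rice member of the CRABS CLAW type. Its loss turns carpels into stamens and removes the midrib of the leaf, which gives the drooping leaves of the name. TOB1 is needed for the growth of the lemma, the palea and other lateral organs of the spikelet and for the order of its meristem, OsYABBY1 and OsYABBY4 have been linked to gibberellin in rice, and no role is given here for OsYABBY3. A second rice numbering exists, in which OsYABBY3 is OsYAB4, OsYABBY4 is OsYAB7 and TOB1 is OsYAB3. OsYABBY7 was not analysed here.

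The 36 libraries held 22372257 to 55476576 counts. Levels are given as CPM, a gene's counts relative to the total count of its library after that total was scaled by the trimmed mean of M values (TMM), ± SD over the 3 libraries of a group. Replicates of a group correlated across genes (not independent points) at 0.963 to 0.991. The labels held up for the transgene: OsEPF1 was at 0 to 2.50 CPM in the 18 IR64 libraries and at 1001 to 3774 CPM in the 18 OsEPF1-oe libraries. The summed level of 12 floral organ identity genes was 1775 to 2279 CPM in the developing libraries and 3931 to 4824 CPM in the mature ones. All libraries are from florets, so without another tissue beside it this sum cannot check the labelled tissue. A gene was called where its Benjamini-Hochberg adjusted p in edgeR's quasi-likelihood test, taken over all tested genes, was under 0.05. In whole florets, fewer cells of a type and less RNA per cell cannot be told apart. Levels of different genes are not compared with each other, because no lengths of the annotation used for counting were at hand.

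The genes split by their course. TOB1, OsYABBY3 and OsYABBY4 were highest in the first or second stage and fell further into the mature floret. DL fell from stage 1 to stage 4, was lowest at stage 5 and rose in the mature floret. OsYABBY1 stayed within a 1.23-fold range of its group means in each line. The plot of levels by stage shows these courses for every library.

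**Figure D1:**
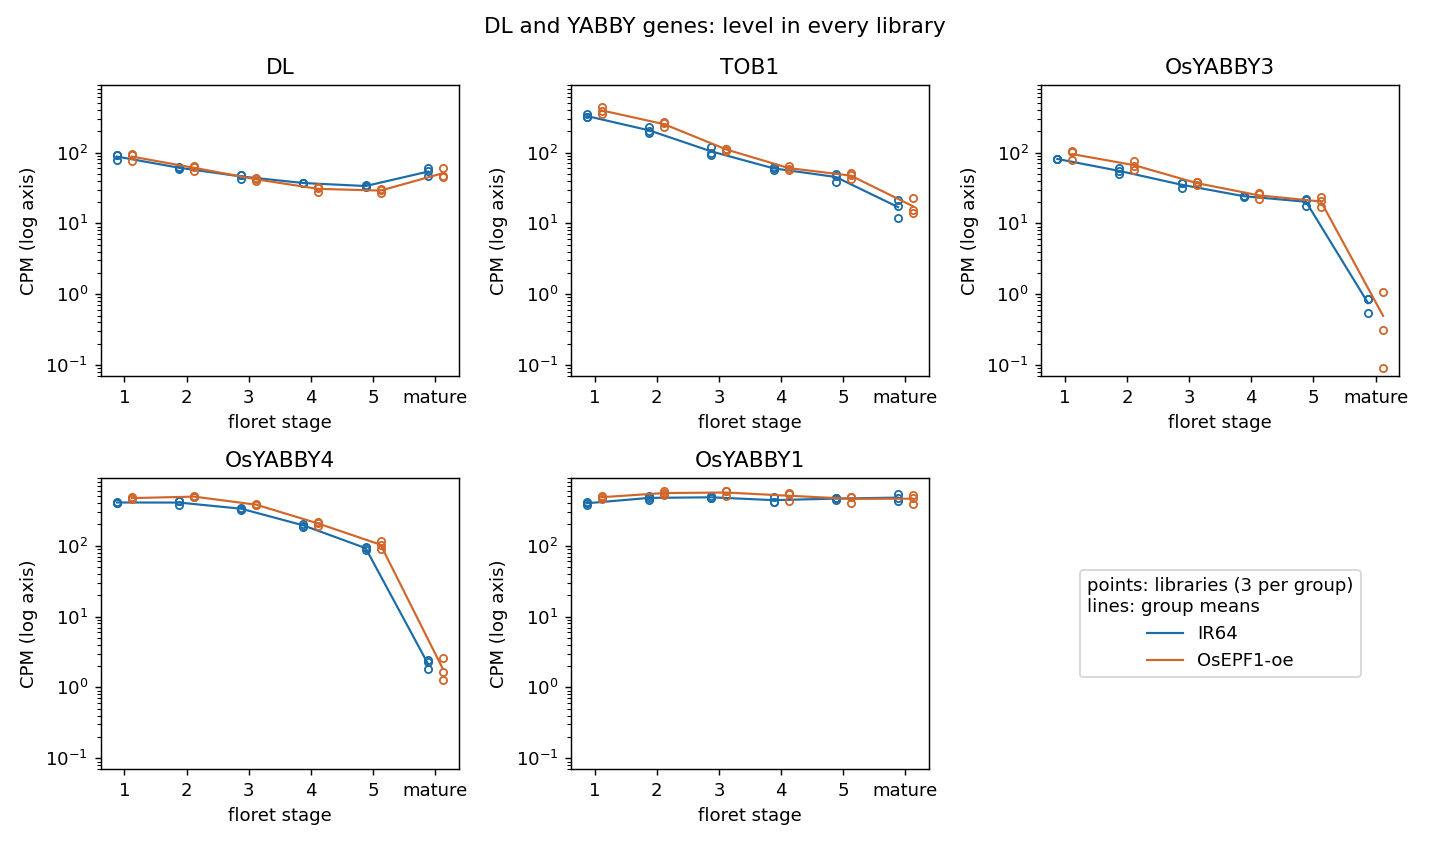
Level of each of the 5 genes in every library, in CPM on a logarithmic axis, by floret stage. Open points are libraries (3 per group), lines join the group means, blue is IR64 and orange OsEPF1-oe; OsYABBY3 and OsYABBY4 drop to below 3 CPM in mature florets, while DL rises from stage 5 and OsYABBY1 stays between 378 and 600.2 CPM.

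DL, the carpel and midrib gene, was highest at stage 1. Its 3 IR64 libraries stood at 79.4, 92.5 and 91.2 CPM at stage 1, at 59.3, 61.3 and 62.2 CPM at stage 2 and at 41.8, 48.1 and 47.8 CPM at stage 3. They stood at 36.9, 37.0 and 37.3 CPM at stage 4, at 33.2, 32.5 and 35.2 CPM at stage 5 and at 60.1, 54.8 and 46.2 CPM in mature florets. No library of one developing stage overlapped with the next in IR64, and every mature library lay above every stage 5 library. In OsEPF1-oe the group means were 87.6 ± 10.9, 60.8 ± 5.60, 41.9 ± 1.57, 30.7 ± 2.42, 29.0 ± 1.62 and 51.0 ± 8.46 CPM in the same order (SD, n = 3). There the libraries of stages 4 and 5 overlapped.

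The stage 1 mean of DL was 2.61 times the stage 5 mean in IR64 and 3.02 times in OsEPF1-oe. The log2 change was -0.53 ± 0.11 (SE) from stage 1 to 2 (edgeR adjusted p = 0.001) and -0.41 ± 0.11 from stage 2 to 3 (adjusted p = 0.0058) in IR64. In OsEPF1-oe the same steps were -0.53 ± 0.11 (edgeR adjusted p = 0.0011) and -0.54 ± 0.11 (adjusted p = 0.00036). The step from stage 3 to 4 was called in both lines, at -0.31 ± 0.11 in IR64 (edgeR adjusted p = 0.048) and -0.45 ± 0.11 in OsEPF1-oe (adjusted p = 0.0046). The IR64 call sits at the threshold: it was lost with RLE scaling (adjusted p = 0.097), with DESeq2 (adjusted p = 0.08), without the filter on low counts (adjusted p = 0.057), with only the 6 libraries compared (adjusted p = 0.072) and without any 1 of 5 of those 6 libraries. The step from stage 4 to 5 passed in neither line, with -0.14 ± 0.11 in IR64 and -0.08 ± 0.11 in OsEPF1-oe.

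From stage 5 to the mature floret DL rose 1.60-fold in IR64 (log2 change 0.67 ± 0.11, edgeR adjusted p = 2.6e-06) and 1.76-fold in OsEPF1-oe (0.81 ± 0.11, adjusted p = 1.2e-07). Its mature level remained at 61.2% of its stage 1 level in IR64 and at 58.2% in OsEPF1-oe. Of the 7 YABBY genes followed here, DL and OsYABBY6 were called higher in this step in both lines. Over all tested genes 36.1% were called higher in it in each line. Mature libraries had smaller TMM factors (0.745 to 0.887) than the others, and on the plain total count DL stood at 32.8 CPM at stage 5 and 42.3 CPM in mature florets of IR64, with libraries that overlapped; upper-quartile scaling kept the rise (log2 change 0.50, edgeR adjusted p = 0.00016).

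TOB1, the gene of spikelet organ growth, had the steepest course of the 5 within the developing stages. In IR64 its libraries stood at 316, 314 and 351 CPM at stage 1, at 189, 201 and 226 CPM at stage 2 and at 92.3, 99.6 and 119 CPM at stage 3. They stood at 57.3, 59.9 and 62.1 CPM at stage 4, at 38.3, 47.3 and 49.8 CPM at stage 5 and at 17.4, 11.9 and 21.7 CPM in mature florets. Each stage lay wholly below the one before it, and this was so in OsEPF1-oe as well. The group means in OsEPF1-oe were 392 ± 49.6, 251 ± 21.5, 110 ± 3.88, 60.3 ± 4.23, 47.2 ± 4.13 and 17.5 ± 4.82 CPM (SD, n = 3).

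Stage 1 exceeded stage 5 by 7.24 times in IR64 and 8.30 times in OsEPF1-oe for TOB1. The step from stage 2 to 3 was the largest of the developing ones, with a log2 change of -0.99 ± 0.16 in IR64 (edgeR adjusted p = 3.7e-05) and -1.19 ± 0.16 in OsEPF1-oe (adjusted p = 2.3e-06). The steps from 1 to 2 and from 3 to 4 were also called in both lines, with log2 changes of -0.64 to -0.87. In OsEPF1-oe the first of these lost its call without replicate 3 of stage 1 (edgeR adjusted p = 0.059) or replicate 1 of stage 2 (adjusted p = 0.057). From stage 4 to 5 the change was -0.40 ± 0.16 in IR64 and -0.35 ± 0.16 in OsEPF1-oe, which did not pass (edgeR adjusted p = 0.11 and 0.22). The mature level was lower than that of stage 5 by 2.65 times in IR64 (log2 change -1.41 ± 0.17, edgeR adjusted p = 1.5e-08) and by 2.70 times in OsEPF1-oe (-1.44 ± 0.16, adjusted p = 9e-09).

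OsYABBY3 stood in IR64 at 81.6, 81.0 and 80.7 CPM at stage 1, at 50.2, 54.5 and 60.1 CPM at stage 2 and at 36.7, 31.9 and 36.6 CPM at stage 3. It stood at 23.4, 24.4 and 24.7 CPM at stage 4, at 17.6, 21.1 and 21.9 CPM at stage 5 and at 0.845, 0.850 and 0.543 CPM in mature florets. As with TOB1, the IR64 libraries of each stage lay below those of the stage before. The means in OsEPF1-oe were 95.0 ± 14.6, 66.2 ± 9.22, 37.0 ± 2.25, 24.9 ± 2.73, 20.4 ± 3.40 and 0.495 ± 0.518 CPM (SD, n = 3), and there stages 4 and 5 overlapped. Of its developing steps, the one from stage 2 to 3 was called in both lines, with log2 changes of -0.65 ± 0.20 in IR64 (edgeR adjusted p = 0.019) and -0.84 ± 0.20 in OsEPF1-oe (adjusted p = 0.0024). From stage 1 to 2 its changes were -0.56 ± 0.20 in IR64 and -0.52 ± 0.20 in OsEPF1-oe. From stage 3 to 4 they were -0.54 ± 0.20 and -0.58 ± 0.20. None of these 4 passed with edgeR on all 36 libraries (adjusted p = 0.059 to 0.1). DESeq2 called all 4 (adjusted p = 0.0013 to 0.0072), as did edgeR with only the 6 libraries compared (adjusted p = 0.0013 to 0.033). Without 3 libraries that stood apart from their groups, chosen after seeing the data, edgeR called 2 of them. These were stage 1 to 2 of IR64 (adjusted p = 0.033) and stage 3 to 4 of OsEPF1-oe (adjusted p = 0.029). The IR64 call from stage 2 to 3 was lost without replicate 3 of stage 2 (edgeR adjusted p = 0.089) or replicate 2 of stage 3 (adjusted p = 0.078).

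From stage 5 to the mature floret OsYABBY3 fell 27.1-fold in IR64. The log2 change from stage 5 to mature was -4.76 ± 0.28 in IR64 (edgeR adjusted p = 1e-14) and -5.26 ± 0.29 in OsEPF1-oe (adjusted p = 1.2e-15), the latter -6.57 (edgeR adjusted p = 9.8e-18) without replicate 1 of the mature florets. In mature florets the gene rested on 42 counts over the 3 IR64 libraries and on 41 over the 3 OsEPF1-oe libraries, those in OsEPF1-oe split as 31, 2 and 8.

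OsYABBY4 kept its level for longer. In IR64 it stood at 408, 417 and 400.1 CPM at stage 1, at 374, 424 and 424 CPM at stage 2 and at 325, 331 and 344 CPM at stage 3. It then stood at 192, 183 and 206 CPM at stage 4, at 88.1, 94.5 and 94.9 CPM at stage 5 and at 1.79, 2.27 and 2.47 CPM in mature florets. Stages 1 and 2 overlapped, and every later stage lay below the one before. The means in OsEPF1-oe were 471 ± 18.9, 494 ± 10.3, 380.2 ± 4.24, 206 ± 14.7, 103 ± 13.5 and 1.84 ± 0.709 CPM (SD, n = 3).

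Its first step was -0.0031 ± 0.12 on the log2 scale in IR64 and 0.07 ± 0.12 in OsEPF1-oe. The step from stage 2 to 3 was -0.29 ± 0.12 in IR64 (edgeR adjusted p = 0.087) and -0.38 ± 0.12 in OsEPF1-oe (adjusted p = 0.02). The call in OsEPF1-oe was lost without replicate 1 of stage 2 or without replicates 1 or 3 of stage 3 (adjusted p = 0.053 to 0.063), and with DESeq2 the IR64 step passed too (adjusted p = 0.0041). The next steps were larger, at -0.78 ± 0.12 and -1.07 ± 0.12 in IR64 and -0.88 ± 0.12 and -0.99 ± 0.12 in OsEPF1-oe, with edgeR adjusted p of 2.4e-05 or less. From stage 5 to the mature floret the log2 change was -5.40 ± 0.16 in IR64 (edgeR adjusted p = 1.9e-21) and -5.81 ± 0.16 in OsEPF1-oe (adjusted p = 3.8e-22). The mature level was 0.533% of the stage 1 level in IR64 and 0.391% in OsEPF1-oe.

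OsYABBY1 had the flattest course of the 5. Its IR64 means were 399 ± 20.04, 474 ± 26.1, 483 ± 13.8, 440.4 ± 39.4, 464 ± 16.5 and 479 ± 48.6 CPM from stage 1 to the mature floret (SD, n = 3). In OsEPF1-oe they were 485 ± 29.8, 555 ± 40.3, 565 ± 52.4, 509 ± 72.8, 460.0 ± 50.6 and 463 ± 66.6 CPM. Neighbours in the order of the group means overlapped in both lines, but every stage 2 library lay above every stage 1 library in both lines, at 447 to 499 against 378 to 419 CPM in IR64 and at 514 to 594 against 452 to 511 CPM in OsEPF1-oe. None of its 10 steps was called, and the largest, from stage 1 to 2 in IR64, was 0.25 ± 0.11 with a 95% interval of 0.02 to 0.48 (edgeR adjusted p = 0.17). The flat last step rests on the scaling, since its log2 change in IR64 was 0.05 with TMM and -0.13 with upper-quartile scaling, which moved the median change of all tested genes in that step by -0.16. On the plain total count its IR64 mean was 452 CPM at stage 5 and 376 CPM in mature florets.

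Set against all tested genes, the called steps of the 5 genes went down in the developing floret. In IR64 2 of 5 were called lower from stage 1 to 2, where 3.12% of all genes were, 3 of 5 from stage 2 to 3 (8.58% of all genes), 3 of 5 from stage 3 to 4 (7.94%) and 1 of 5 from stage 4 to 5 (4.31%). In OsEPF1-oe the counts were 2 of 5 (2.74% of all genes), 4 of 5 (9.30%), 3 of 5 (5.76%) and 1 of 5 (3.18%). None of the 20 developing steps in either line was called higher. Over all tested genes 6.13% to 11.1% were called higher in these steps of IR64 and 4.55% to 13.1% in those of OsEPF1-oe. A count of 0 of 20 is not far from these shares. Into the mature floret 3 of 5 were called lower and 1 of 5 higher in each line, where 32.6% of all genes were lower and 36.1% higher in IR64, and 33.2% lower and 36.1% higher in OsEPF1-oe. The median log2 change of the 5 was between -0.54 and -0.26 in the developing steps of IR64 and between -0.58 and -0.29 in those of OsEPF1-oe, where that of all tested genes was between 0 and 0.0062. The lines gave the same call in 24 of 25 steps, the exception being OsYABBY4 from stage 2 to 3; whether that step differed between the lines was not tested.

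**Figure D2:**
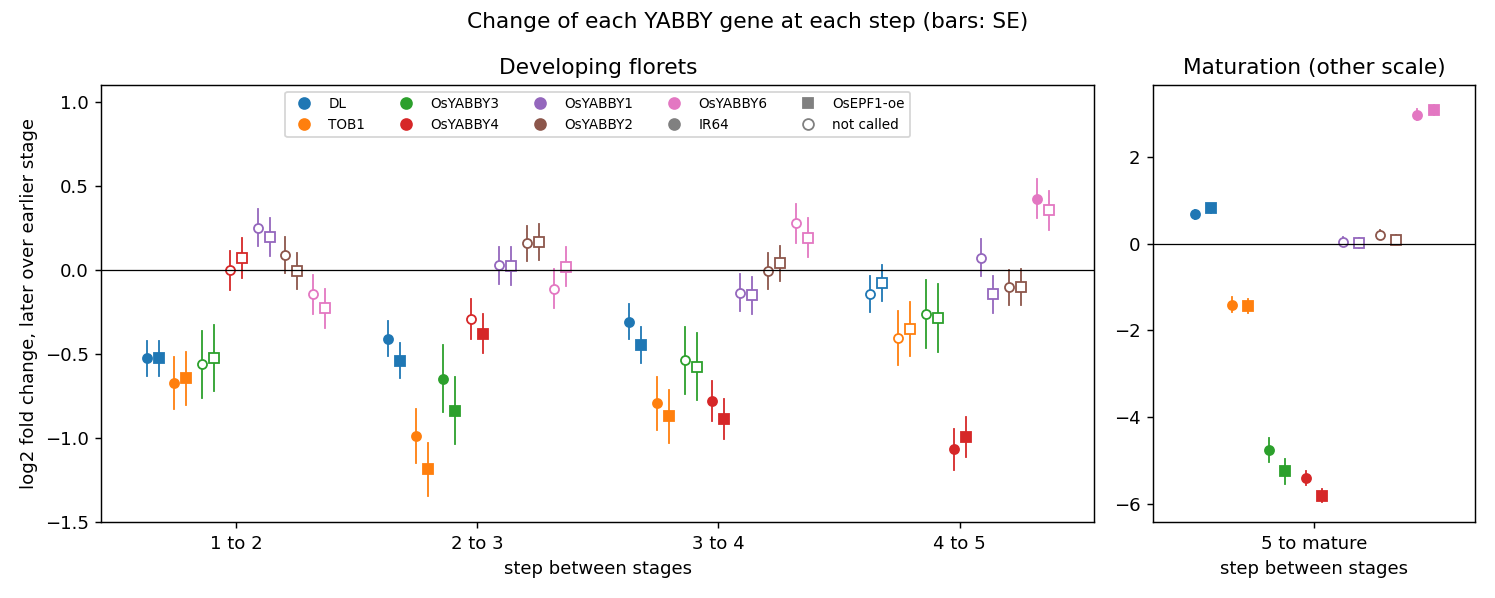
Log2 fold change of each YABBY gene from one stage to the next, with bars of 1 SE; circles are IR64 and squares OsEPF1-oe, filled where the step was called and white where it was not. In the developing steps on the left the called changes of the 5 genes all point down, and the mature step on the right, on its own scale, runs from -5.81 for OsYABBY4 to 3.08 for OsYABBY6.

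Markers of other tissues moved along the same stages. The summed level of 8 meristem genes in IR64 ranged from 249 to 295 CPM over the stage 1 libraries and from 101 to 107 CPM at stage 4, and in OsEPF1-oe from 278 to 298 CPM and from 115 to 127 CPM. At stage 5 the sum was 93.1 to 115 CPM in IR64 and 93.1 to 106 CPM in OsEPF1-oe. In mature florets it was 95.1 to 140 CPM and 101 to 122 CPM. Of the 8 genes 4 were called higher and 2 lower in the last step of IR64, and 4 higher and 1 lower in OsEPF1-oe. Over all tested genes 36.1% were called higher in it in each line, and 32.6% lower in IR64 and 33.2% in OsEPF1-oe. The sum of 6 tapetum genes ranged from 20.9 to 26.2 CPM at stage 1 of IR64 and from 906 to 1645 CPM at stage 5, and in OsEPF1-oe from 15.7 to 20.7 CPM and from 391 to 678 CPM. In mature florets it was 98.2 to 137 CPM in IR64 and 72.7 to 114.5 CPM in OsEPF1-oe. From stage 3 to 4 of IR64 1 of the 6 was called higher (7.3% of all tested genes) and 2 lower (7.94%). In the other developing steps of IR64 3 (7.68%), 5 (11.1%) and 3 (6.13%) were called higher and 0 lower. One of the 8 meristem genes, RFL, had 0 counts in all libraries of 1 group, stage 5 of OsEPF1-oe, and none of the 6 tapetum genes did in any group. The part of these tissues in the courses of the 5 genes was not tested.

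The comparison of the lines asks whether the genes differed with OsEPF1 overexpression at each stage. None of the 30 tests, 5 genes at 6 stages, was called. Over all tested genes the called share was 0.834%, 1.18%, 1.69%, 2.38% and 2.45% in the order of the developing stages and 2.02% in mature florets. Leaving out 1 library moved each of these 6 counts of genes by over 1.5 times, for example to 265 in place of 654 at stage 5. The lowest edgeR adjusted p was 0.2, 3 of the 30 had an unadjusted p under 0.05 (over all 26726 genes, 1959 to 3993 per stage did, so 3 of 30 is near the general share), and DESeq2 called 1, OsYABBY4 at stage 2 (adjusted p = 0.034). In the developing stages the log2 differences, OsEPF1-oe over IR64, ran from -0.27 to 0.29, and their 95% intervals from -0.49 to 0.67.

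**Figure D3:**
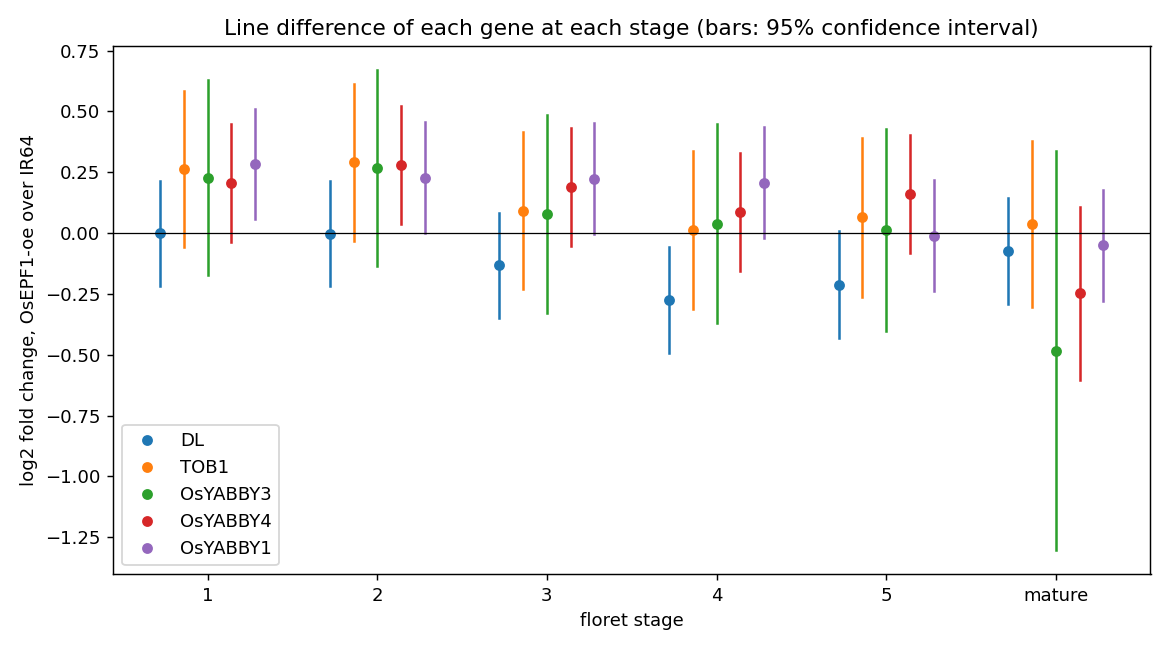
Log2 fold change of OsEPF1-oe over IR64 for each of the 5 genes at each stage, with 95% confidence intervals of the fit to all 36 libraries. None was called; the points lie between -0.27 and 0.29 in the developing stages, and the mature interval of OsYABBY3, which rests on few counts, is the widest.

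DL at stage 4 had the lowest adjusted p of the 30. Its libraries stood at 36.9, 37.0 and 37.3 CPM in IR64 and at 32.2, 32.0 and 27.9 CPM in OsEPF1-oe, with all 3 of the latter below the former. The log2 difference was -0.27 ± 0.11 with an interval of -0.49 to -0.06 (edgeR adjusted p = 0.2). At stage 5 the libraries of OsEPF1-oe were again all below, at 27.2, 29.5 and 30.4 CPM against 33.2, 32.5 and 35.2 CPM, with a log2 difference of -0.21 ± 0.11 (adjusted p = 0.42). At stages 1 and 2 the differences of DL were -0.0012 ± 0.10 and -0.0017 ± 0.11, with libraries that overlapped.

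OsYABBY1 leaned the other way at stages 1 to 4. At stage 1 its libraries stood at 419, 399 and 378 CPM in IR64 and at 452, 493 and 511 CPM in OsEPF1-oe, without overlap (log2 difference 0.28 ± 0.11, edgeR adjusted p = 0.42). The libraries did not overlap at stages 2 and 3 either, with differences of 0.23 ± 0.11 and 0.22 ± 0.11, and they overlapped at stages 4 and 5 and in mature florets. OsYABBY4 was higher in every OsEPF1-oe library at stages 1, 2 and 3, with differences of 0.21 ± 0.12, 0.28 ± 0.12 and 0.19 ± 0.12 (edgeR adjusted p of 0.44 or more). TOB1 did so at stage 2, with 251 ± 21.5 against 205 ± 19.1 CPM (0.29 ± 0.16, adjusted p = 0.67). In 7 of the 30 tests all OsEPF1-oe libraries lay above those of IR64, and in 2 all lay below. How often libraries separate in this way over all tested genes was not counted, between lines or between stages. The separation is therefore a description only. OsYABBY3 overlapped between the lines at all 6 stages. Its mature difference of -0.48 ± 0.40 became -1.80 (edgeR adjusted p = 0.0091) without replicate 1 of OsEPF1-oe, the library with 31 of the 41 counts, which leaves 2 libraries with 2 and 8 counts.

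Averaged over the 6 stages, 1 of the 5 genes was called, OsYABBY1, higher in OsEPF1-oe, where 4.53% of all tested genes were called higher. Its mean log2 difference was 0.15 ± 0.05, an increase of 1.11-fold (edgeR adjusted p = 0.034). The call is near the threshold, as it was lost in 17 of the 36 fits that each left out 1 library, with adjusted p up to 0.086. DL had -0.12 ± 0.04 (edgeR adjusted p = 0.089), and it passed without replicate 3 of mature IR64 (adjusted p = 0.031), without replicate 3 of mature OsEPF1-oe (adjusted p = 0.02) and without 3 libraries that stood apart from their groups (adjusted p = 0.024), the last a setting chosen after seeing the data. OsYABBY4 had 0.11 ± 0.05 (adjusted p = 0.2, and 0.03 without replicate 1 of mature OsEPF1-oe), TOB1 0.13 ± 0.06 (adjusted p = 0.26) and OsYABBY3 0.02 ± 0.10 (adjusted p = 1). None of the 5 had a line difference that was called to vary with stage, with edgeR adjusted p of 0.74 or more in the interaction test, which called 2.24% of all tested genes; 0 of the 5 had an unadjusted p under 0.05 there and DESeq2 called 0.

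The summed tapetum markers were lower in OsEPF1-oe than in IR64 in all libraries of stages 1 to 5, for example 391 to 678 CPM against 906 to 1645 CPM at stage 5. A sum is weighted to its most abundant genes. Of the 6 genes 0, 2, 1, 1 and 2 were called lower at stages 1 to 5 and 0 higher. Over all tested genes 0.352%, 0.718%, 1.03%, 1.29% and 1.31% were called lower at these stages. The summed level of 5 meiosis genes went both ways. It was lower in OsEPF1-oe at stage 3, at 78.45 to 121.6 against 150.5 to 165 CPM. There 3 of the 5 were called lower, where 1.03% of all tested genes were. The sum was higher at stage 5, at 93.07 to 160.3 against 71.05 to 83.18 CPM. There 2 of the 5 were called higher (1.13% of all tested genes), as were 2 at stage 4 (1.09%). The part of these markers in the line differences of the 5 YABBY genes was not tested.

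The other YABBY genes analysed were OsYABBY2 (Os03g0650000) and OsYABBY6 (Os12g0621100). OsYABBY2 also had a narrow range, with group means of 83.8 to 106 CPM in IR64 and 98.7 to 114 CPM in OsEPF1-oe and 0 of 10 steps called, although RLE scaling (edgeR adjusted p = 0.027) and DESeq2 (adjusted p = 0.022) called its rise into the mature floret of IR64, as did the 5 CPM filter (0.022) and leaving out replicate 2 of mature IR64 (0.0053). Its mean line difference was called, at 0.17 ± 0.04 on the log2 scale (edgeR adjusted p = 0.0076), and its single stages were not.

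OsYABBY6 was called higher in the last step in both lines. It stood at 68.0, 57.8 and 67.9 CPM at stage 5 of IR64 and at 543, 466 and 513 CPM in mature florets, a rise of 7.86-fold (log2 change 2.97 ± 0.12, edgeR adjusted p = 2.6e-18). In OsEPF1-oe it rose 8.45-fold (3.08 ± 0.12, adjusted p = 1.2e-18). The step from stage 4 to 5 was 0.42 ± 0.11 in IR64 (adjusted p = 0.014) and 0.35 ± 0.11 in OsEPF1-oe (adjusted p = 0.055). The IR64 call was lost without any 1 of 3 libraries, replicate 2 of stage 4 and replicates 1 and 3 of stage 5 (adjusted p = 0.056 to 0.083). That of OsEPF1-oe passed with RLE scaling (edgeR adjusted p = 0.047), with the 5 CPM filter (0.045), with DESeq2 (0.025), without replicate 1 of stage 4 (0.01) and without replicate 3 of stage 5 (0.039). OsYABBY6 was highest in the mature floret, where OsYABBY3 and OsYABBY4 were lowest.

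OsMADS1 (Os03g0215400), a SEPALLATA-like MADS-box gene of lemma and palea identity, is the neighbour of DL: the RefSeq table held 0 protein-coding genes between them. The neighbours took opposite courses in the developing floret. OsMADS1 was at 469 CPM at stage 1 of IR64 and at 788 CPM at stage 5, with the step from stage 2 to 3 called in IR64 (log2 change 0.30 ± 0.09, edgeR adjusted p = 0.012) and in OsEPF1-oe (0.37 ± 0.09, adjusted p = 0.0021). The IR64 call was lost without replicate 1 of stage 2 (adjusted p = 0.054), without replicate 3 of stage 3 (adjusted p = 0.073) and with only the 6 libraries compared (adjusted p = 0.11). In the last step OsMADS1 changed by -0.05 ± 0.09 in IR64 and by 0.21 ± 0.09 in OsEPF1-oe (adjusted p = 0.03), a call lost with upper-quartile scaling (adjusted p = 0.4), with only the 6 libraries compared (adjusted p = 0.28), without replicate 1 of stage 5 (adjusted p = 0.17) and without replicate 3 of the mature florets (adjusted p = 0.25). No source used here states whether counting took account of strand.

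**Figure D4:**
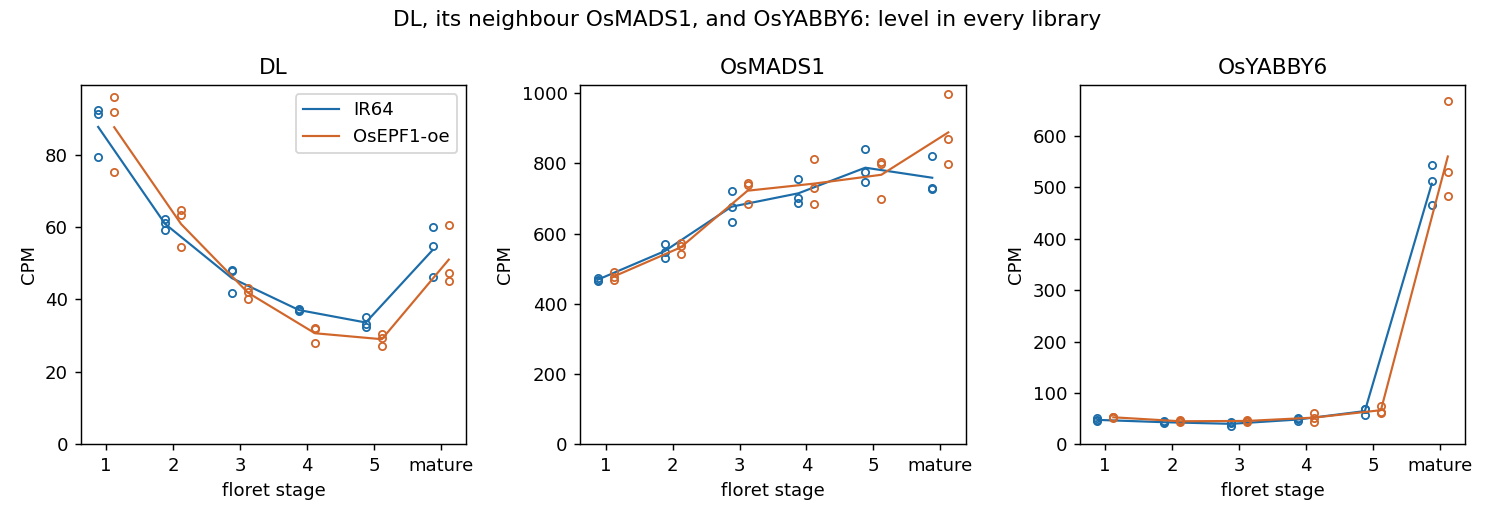
Level of DL, of its neighbour OsMADS1 and of OsYABBY6 in every library, in CPM on linear axes that start at 0, by floret stage; open points are libraries (3 per group) and lines join group means, blue for IR64 and orange for OsEPF1-oe. DL falls from 87.7 to 33.6 CPM in IR64 while OsMADS1 rises from 469 to 788 CPM, and OsYABBY6 rises from 64.6 to 507 CPM in the last step.

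The likeness of courses was measured as Pearson's r of log2 CPM over the 12 group means, which share libraries, depth and the stages, and is given as a description against 22273 other genes averaging 1 CPM or more. OsYABBY3 and OsYABBY4 were alike (r = 0.99), although OsYABBY4 was only the 141st closest gene to OsYABBY3. TOB1 had r = 0.89 with OsYABBY3 and 0.86 with OsYABBY4, as the 3168th and 3833rd closest of the 22273 genes. DL had r = 0.61 with TOB1, 0.21 with OsYABBY3, 0.14 with OsYABBY4 and -0.17 with OsYABBY1, and -0.80 with its neighbour OsMADS1. OsYABBY6 had r = -0.98 with OsYABBY4 and -0.96 with OsYABBY3. By rank the order differed: Spearman's rho of DL was 0.60 with TOB1, 0.61 with OsYABBY3 and 0.57 with OsYABBY4, and OsYABBY3 had 0.993 with TOB1 and 0.979 with OsYABBY4. High values are common for a course that drops at maturity: 1363 genes reached r of at least 0.95 with OsYABBY3, 1402 with OsYABBY4 and 1952 with TOB1, against 124 with DL and 0 with OsYABBY1. They are also common for OsYABBY6, which rises at maturity, with 2456 genes.

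The genes most like each were as follows, by ID. For DL they were Os06g0237502 (r = 0.99) and Os12g0579000 (r = 0.98). For TOB1 they were Os04g0658600 and Os10g0347000, for OsYABBY3 Os11g0602300 and Os02g0226600, and for OsYABBY4 Os03g0209500 and Os07g0596000, each with r of 1.00 after rounding. For OsYABBY1 they were Os09g0279050 (r = 0.80) and Os11g0135900 (r = 0.79).

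Genes of organ polarity act beside YABBY genes in Arabidopsis. The list used here joins organ polarity genes with WOX3 homeobox genes. Of its 10 genes 7 were tested, and NAL2, NAL3 and OSHB5 had too few counts. In the mature step 6 of 7 were called lower in each line and none higher, where 32.6% of all tested genes were lower in IR64 and 33.2% in OsEPF1-oe, with a median log2 change of -0.97 in IR64 and -1.30 in OsEPF1-oe against 0.02 and 0.04 for all tested genes. Examples are OSHB3, a class III HD-ZIP gene, at -2.44 ± 0.29 in IR64 (edgeR adjusted p = 2e-08), and OSHB1, of the same class, at -1.44 ± 0.09 (adjusted p = 7.6e-14). In the developing steps of IR64 the called members were 2 of 7 (3.12% of all tested genes were lower), 2 of 7 (8.58%), 2 of 7 (7.94%) and 0 of 7 (4.31%), all lower, led by the auxin response factor genes OsETT1 at -0.67 ± 0.11 from stage 1 to 2 (adjusted p = 7.3e-05) and OsETT2 at -0.78 ± 0.09 from stage 2 to 3 (adjusted p = 1.8e-07).

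The floral organ identity list holds genes that DL joins in specifying the carpel. Of its 12 MADS-box genes 9 were called higher and 1 lower in the last step of IR64, where 36.1% of all tested genes were higher and 32.6% lower, and 10 higher and 2 lower in OsEPF1-oe, where 36.1% were higher and 33.2% lower, with medians of 1.519 and 1.395 on the log2 scale. The largest rises in IR64 were those of OsMADS21 at 5.95 ± 0.44 (edgeR adjusted p = 8.9e-13) and of OsMADS13, an ovule identity gene, at 4.10 ± 0.20 (adjusted p = 1.8e-16). At stage 5 of IR64 OsMADS21 had 39 counts over 3 libraries, a mean of 0.505 CPM, so the size of its rise rests on few counts. In the developing steps of IR64 2 of the 12 were called higher and 1 lower from stage 2 to 3. There 11.1% of all tested genes were higher and 8.58% lower. From stage 3 to 4 2 were called lower (7.94% of all tested genes), and in the other steps 0. These counts are near the shares of all genes. Of 12 gibberellin genes, 8 were called higher and 4 lower in the last step of IR64 and 8 higher and 3 lower in OsEPF1-oe, against the same shares of all genes; the lower counts are near the share of all genes. Of the 8 meristem genes 5 were called lower and none higher from stage 3 to 4 of IR64 (7.94% of all genes were lower) and 2 lower and none higher in OsEPF1-oe (5.76%), while from stage 2 to 3 it was 2 lower and 1 higher in IR64 (8.58%) and 4 lower and 1 higher in OsEPF1-oe (9.30%). In the IR64 step from stage 3 to 4 TAB1, a WUSCHEL-type homeobox gene, changed by -1.23 ± 0.42 (adjusted p = 0.044).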

How the data were processed

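RNA was measured in whole florets by poly(A) RNA sequencing, per the labels' protocols. The deposited table holds raw read counts per gene, not normalized by the authors. Per the submitters' processing notes, Trimmomatic 0.38, HISAT2 2.1.0, Subread 2.0.0 and featureCounts were used with the IRGSP-1.0 build; no source used here states the strand or multi-mapping settings. Gene names were paired with IDs from general knowledge: 46 of 61 had a symbol in the RefSeq table (assembly ASM3414082v1, used for names and neighbours only), and all 46 lay on the same chromosome at the same relative rank within 0.02. The others had no symbol there and their pairing was not checked. Of the genes named here, these include OSHB3, OsETT1, OsETT2, TAB1, NAL2, NAL3 and OsEPF1.

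Counts were fitted in R 4.3.3 with edgeR 4.0.16 (filterByExpr on the 12 groups, TMM, robust glmQLFit and glmQLFTest on 12 group means over all 36 libraries, 24 residual degrees of freedom, no covariates), with Benjamini-Hochberg adjustment over all 26726 tested genes and tests on simulated data. There were 18 comparisons: the lines at each stage, their mean, the interaction and 5 steps in each line. p-values measure the spread between replicates pooled over groups. Log2 CPM for likeness used a prior count of 2. The genes named are the 5 genes, 2 other YABBY genes, OsMADS1, OsEPF1, at most 2 called genes of each list with the largest changes in a comparison, and the 2 genes most like each member. RFL and the untested NAL2, NAL3 and OSHB5 fall outside this rule and were named after their values were seen. As alternatives, DESeq2 1.42.0, upper-quartile and RLE scaling, other filters, replicate blocks, subsets of libraries and plain totals were used. The genes and lists were chosen with earlier results of these data known.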

Additional observations from a re-analysis of the deposited data

Results flagged for a closer look

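The line difference of OsEPF1 itself varied with stage (interaction, edgeR adjusted p = 3.3e-09). Its level in OsEPF1-oe was 1154 ± 132 CPM at stage 1 and 3326 ± 518 CPM at stage 5 (SD, n = 3), while IR64 held 201 counts over its 3 stage 1 libraries and 2 counts over its 3 mature libraries. It concerns the transgene and not the YABBY genes, for which no such variation was called.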

How the results depend on the processing

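Of 2853 recomputed tests and counts, not including those over all genes, 2675 were classed as the same. Of the others 44 lost and 33 gained a call, 23 counts moved by over 1.5 times and 78 changed sign. A test was the same where it kept its side of the threshold and, except in the interaction, its sign. A count was the same where it moved by at most 1.5 times. The sign changes concern 30 results with log2 changes of at most 0.14 in size, none of them called under either setting; the causes were not tested. The number of the 5 genes called in the line comparison at stage 2 was 1 with DESeq2 in place of 0. For the lines averaged over stages it was 2 without 3 libraries that stood apart (replicate 1 of IR64 stage 3, replicate 1 of OsEPF1-oe stage 5 and replicate 3 of mature IR64, chosen after seeing the data) in place of 1, and for IR64 from stage 4 to 5 it was 2 with a replicate block or with only the 6 libraries compared in place of 1. Leaving out 1 library at a time gave 0 to 2 called for the averaged lines, 1 to 2 for OsEPF1-oe from stage 1 to 2 and 0 to 1 for the lines in mature florets. Within 1.5 times, it gave 2 to 3 for IR64 from stage 2 to 3 and from stage 3 to 4. For OsEPF1-oe from stage 2 to 3 it gave 3 to 4. Shifts of at most 1.5 times under the other settings are not listed. Over all genes DESeq2 called 378 line differences at stage 1 in place of 223, 547 at stage 2 in place of 315, 717 at stage 3 in place of 453, 1091 at stage 4 in place of 635, 941 in mature florets in place of 541, and 1494 in the interaction in place of 599. Of 317 recomputed counts over all genes 45 moved by over 1.5 times, 29 of them with 1 library left out. Those fits called 119 to 203, 159 to 239, 213 to 449, 286 to 795 and 265 to 972 line differences in the order of the 5 developing stages (654 in the last with all libraries), and 274 to 792 in mature florets. They called 1620 to 2322 genes in place of 2888 from stage 1 to 2 and 1756 to 2533 in place of 2792 from stage 4 to 5 of IR64. In OsEPF1-oe they called 1477 to 2107 in place of 2422 from stage 1 to 2, 2123 to 2655 in place of 3247 from stage 3 to 4 and 1148 to 2000 in place of 2066 from stage 4 to 5. The libraries that moved a line count were replicates 1, 2 and 3 of IR64 and 2 of OsEPF1-oe at stage 1, 1 of IR64 and 2 and 3 of OsEPF1-oe at stages 2 and 3, 1 and 2 of IR64 and 2 and 3 of OsEPF1-oe at stages 4 and 5, and 2 of each line in mature florets. For the steps they were, in IR64, replicate 3 of stage 1 and 1 of stage 2, and 2 of stage 4 and 1 of stage 5, and in OsEPF1-oe 3 of stage 1 and 1 of stage 2, 2 of stage 3, and 2 of stage 4 and 1 of stage 5. With only the 6 libraries compared the line counts were 144, 56, 396 and 99 for stages 1, 3, 4 and 5 and 8 in mature florets, and the steps called 2628 genes in place of 4074 from stage 3 to 4 of IR64 and 1122 in place of 2066 from stage 4 to 5 of OsEPF1-oe. Without the 3 libraries the line counts were 1198 at stage 4, 1332 at stage 5 in place of 654, and 4806 averaged over stages in place of 2830.

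No pairing by replicate number was seen: 6 of 18 same-numbered pairs correlated above 0.1 (median 0.04, highest 0.19). Pairs with different numbers also reached 0.24. Deviations from a mean of 3 libraries constrain each other, so this check cannot settle whether samples were paired. The replicate block is an alternative only. With the block TOB1 was called lower from stage 4 to 5 in IR64 (log2 change -0.41, edgeR adjusted p = 0.039), and within stage the averaged line difference of OsYABBY3 was -0.0050.

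Log2 changes with the opposite sign were as follows. The DL line difference at stage 1 was 0.0033 with upper-quartile scaling, 0.00046 with at least 5 CPM in at least 3 libraries and 0.015 with only the 6 libraries compared, and at stage 2 it was 0.0054 with RLE, 0.011 with upper-quartile scaling, 0.019 with the 5 CPM filter, 0.0048 with DESeq2 and 0.0093 with 6 libraries. At stage 5 that of OsYABBY3 was -0.013 with 6 libraries, and without the 3 libraries those of OsYABBY1, OsYABBY6 and OsMADS1 were 0.066, -0.076 and 0.014. OsYABBY2 in IR64 from stage 3 to 4 had 0.034 with RLE and 0.034 with DESeq2, and in OsEPF1-oe from stage 1 to 2 0.0090 with the 5 CPM filter. Into the mature floret OsMADS1 in IR64 had 0.0086 with RLE and DESeq2, 0.0099 with the 5 CPM filter and 0.0020 without the 3 libraries. Upper-quartile scaling gave OsYABBY1 -0.13 in IR64 and -0.12 in OsEPF1-oe and OsYABBY2 -0.037 in OsEPF1-oe, and OsYABBY1 in OsEPF1-oe had -0.0054 with 6 libraries and -0.045 without the 3.

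Leaving out 1 library at a time, the log2 changes that changed sign ranged as follows: for the line difference in mature florets DL -0.22 to 0.015, OsYABBY1 -0.15 to 0.054, OsYABBY2 -0.042 to 0.16, OsYABBY6 -0.00073 to 0.24, TOB1 -0.21 to 0.27, for the line difference at stage 1 DL -0.071 to 0.097, for the line difference at stage 2 DL -0.050 to 0.073, for OsEPF1-oe from stage 3 to 4 OsMADS1 -0.030 to 0.095, OsYABBY2 -0.021 to 0.087, for OsEPF1-oe from stage 4 to 5 OsMADS1 -0.0073 to 0.12, for the line difference at stage 4 OsMADS1 -0.015 to 0.11, OsYABBY3 -0.025 to 0.13, OsYABBY6 -0.031 to 0.22, TOB1 -0.043 to 0.057, for the line difference at stage 5 OsMADS1 -0.075 to 0.026, OsYABBY1 -0.068 to 0.077, OsYABBY3 -0.11 to 0.13, OsYABBY6 -0.064 to 0.10, TOB1 -0.041 to 0.14, for IR64 from stage 2 to 3 OsYABBY1 -0.015 to 0.064, for IR64 from stage 5 to mature OsYABBY1 -0.036 to 0.11, for OsEPF1-oe from stage 2 to 3 OsYABBY1 -0.030 to 0.098, OsYABBY6 -0.019 to 0.045, for OsEPF1-oe from stage 5 to mature OsYABBY1 -0.097 to 0.11, OsYABBY2 -0.025 to 0.15, for IR64 from stage 3 to 4 OsYABBY2 -0.042 to 0.023, for OsEPF1-oe from stage 1 to 2 OsYABBY2 -0.085 to 0.062, for the line difference averaged over stages OsYABBY3 -0.19 to 0.095, for IR64 from stage 1 to 2 OsYABBY4 -0.033 to 0.055.

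At 2 to 31 counts per library, OsYABBY3 in mature florets is limited by depth.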
